A study of Mus musculus with 6 samples.

Results

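mmu-miR-6236, mmu-miR-6238, mmu-miR-6239, mmu-miR-6240 and mmu-miR-3968 are 5 late-annotated mouse miRNA names suspected of collecting pieces of ribosomal or transfer RNA, described here in vesicles from dying bone-forming cells. They are 5 of the 1712 entries of the deposited table, which lists 1528 miRNA names and 184 entries under a numeric ID alone; the species prefix is dropped below. The 5 were chosen by name with their levels in these libraries and their differences between the genotypes known, so both are given as a description, with no test. The kind of RNA that the reads came from was not established in these data.

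Small RNA was sequenced from extracellular vesicles of apoptotic osteoblasts, the cells that lay down bone matrix. The knockout group held 3 libraries from Prx1cre;SIRT6f/f mice, in which Cre expressed from the Prx1 enhancer recombines floxed SIRT6, a gene for a nuclear deacetylase, in the limb mesenchyme lineage. The control group held 3 libraries from SIRT6f/f mice, which carry the same floxed alleles without Cre. In both groups the cultured osteoblasts were driven into apoptosis and kept for 48 h in serum-free medium, per the labels' protocols, before the vesicles were pelleted. Both groups therefore share the floxed alleles, the induced apoptosis and the serum-free culture. Ages, and whether replicates came from separate animals or cultures, are not given in the labels, so the spread between replicates may be technical. SIRT6 is not a small RNA and its loss could not be checked in this table. In vesicle RNA from a whole culture, fewer vesicles that carry an RNA and less of it per vesicle cannot be told apart.

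A microRNA is cut in 2 steps from a folded hairpin precursor by the nucleases Drosha and Dicer, and the mature strand, loaded onto an Argonaute protein, pairs with messenger RNAs mainly through its seed, bases 2 to 8. Ribosomal and transfer RNAs make up most of a cell's RNA, and their fragments enter small RNA libraries alongside miRNAs. An annotated name whose sequence lies close to such an abundant RNA can gather its reads.

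The 5 mature sequences are shown because the question about these entries is one of sequence. They were read from RefSeq on GRCm38.p6, 5′ to 3′, with the seed in capitals, and all 5 names matched.
miR-6236: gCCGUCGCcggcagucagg
miR-6238: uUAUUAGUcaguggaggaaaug
miR-6239: uAGCGUUGgaucacucggug
miR-6240: cCAAAGCAucgcgaaggcccacggcg
miR-3968: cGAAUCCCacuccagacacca
No pair of the 5 shared a seed. The longest run of letters that any pair shared was 6 bases, between miR-6236 and miR-6238. Of the 1304 named entries with a RefSeq mature sequence, 1 had the seed of a member: miR-330-3p shares the seed of miR-6240 and had at most 2.26 RPM in any library. No listed sequence held a member whole or lay within one.

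The sequences differed from each other in length and base content. miR-6240, at 26 bases, was longer than 215 of the 218 ordinary named miRNAs that averaged 10 RPM or more and had a RefSeq sequence, and none was longer. Ordinary named miRNAs are here the named entries outside the 5 and outside a list of 22 other suspected fragment names. miR-6236, at 19 bases, was shorter than 214 of them, and its GC content of 78.9% was exceeded by 1. miR-6240 also had a high GC content (69.2%), whereas miR-6238 had 36.4%, miR-6239 had 55.0% and miR-3968 had 57.1%. The median of the 218 was 22 bases and 48.0% GC.

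The hairpins annotated for these names lie on separate chromosomes of GRCm38. The mature miR-6236 lies at chr9:110281353-110281371 on the plus strand, in a hairpin that overlaps no other gene of GENCODE M21. miR-6238 lies at chr7:53891796-53891817 on the minus strand and miR-6240 at chr5:114851973-114851998 on the plus strand, again with no other gene over the hairpin. miR-6239 lies at chr14:117953768-117953787 on the minus strand, opposite an intron of Gpc6, a gene for a cell-surface heparan sulfate proteoglycan. miR-3968 lies at chr11:115447969-115447989 on the minus strand, opposite an exon of Trim80.

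The hairpin of miR-6239 holds its mature sequence more than once. It is shown, as the DNA of the minus strand at chr14:117953743-117953847, with both copies in capitals.
Mir6239 hairpin: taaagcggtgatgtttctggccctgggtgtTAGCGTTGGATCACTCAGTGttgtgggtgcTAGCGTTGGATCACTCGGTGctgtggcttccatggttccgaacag
The second copy, at bases 61 to 80 of the 105, is the annotated mature sequence. The first, at bases 31 to 50, differs by the substitution G17A, with positions counted from 1 at the 5′ end of the mature sequence, its base given first and that of the upstream copy last. The hairpins of 1262 listed names were searched, and a hairpin with both arms listed was counted for each name. For 3 names, miR-6239, miR-5123 and miR-3113-3p, the hairpin held more than 1 copy of the mature sequence at up to 1 mismatch.

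Predicted folds of the annotated hairpins were weaker per base for some of the 5 than for ordinary named miRNAs. The comparison was with the hairpins of 215 ordinary named miRNAs averaging 10 RPM or more, where a hairpin with both arms listed was counted for each name. The minimum free energy, predicted by ViennaRNA, was -0.21 kcal/mol per base for both miR-6238 and miR-6240, and none of the 215 was less stable per base. It was -0.29 for miR-3968, with 5 of the 215 less stable, -0.34 for miR-6239, with 28 less stable, and -0.37 for miR-6236, with 43 less stable. The median of the 215 was -0.43 kcal/mol per base. Their hairpins have a median length of 84 bases, against 100 to 129 bases for the 5. Of the mature bases, 61.9% were paired in the predicted fold for miR-3968, and 7 of the 215 had as low a share or a lower one. The share was 86.4% for miR-6238, 85.0% for miR-6239, 73.7% for miR-6236 and 73.1% for miR-6240, beside a median of 82.6%. These are predictions from sequence and do not show whether a hairpin is processed in the cell.

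**Figure D1:**
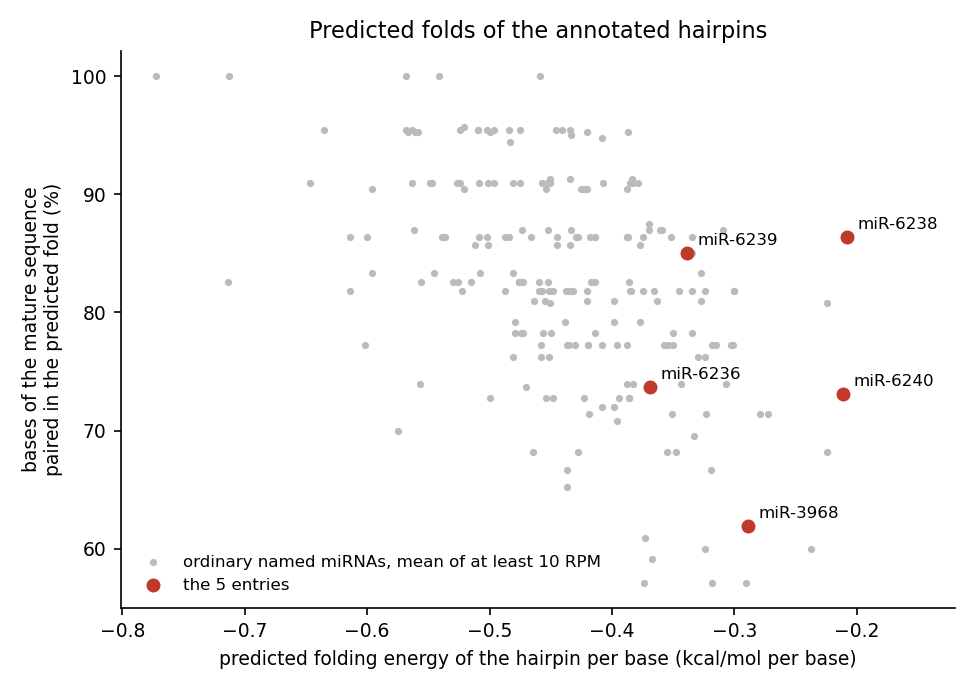
Predicted minimum free energy of the annotated hairpin divided by its length (x axis, kcal/mol per base) against the share of the mature sequence that is paired in that fold (y axis, percent). Grey points are the hairpins of 215 ordinary named miRNAs averaging 10 RPM or more, with a point for each name. Red points are the 5 entries. miR-6238 and miR-6240 lie at the right edge, at -0.21 kcal/mol per base, and miR-3968 is low on the y axis, at 61.9%.

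The mature sequences were searched for runs shared with 3910 small structural RNA transcripts of GENCODE M21, among them 354 annotated as ribosomal RNA and 22 mitochondrial transfer RNAs. The longest shared run was 10 bases for miR-6236, miR-6238, miR-6239 and miR-6240 and 11 bases for miR-3968, beside a median of 11 for the 218 ordinary named miRNAs. By length alone these runs do not set the 5 apart. The run of miR-6239 lay in n-R5-8s1, a gene annotated as ribosomal RNA, and in no other transcript of the set. The pair is shown with the shared run in capitals.
miR-6239: uagcguugGAUCACUCGGug
n-R5-8s1: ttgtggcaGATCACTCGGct
Without gaps, 13 of the 20 positions were identical. Of the other 1303 listed sequences, 3 (0.230%) shared a run of 10 bases or more with that gene. The gene was picked because it held the longest run of miR-6239, so a low share follows from the choice and nothing is read from it. Full-length reference sequences of 18S, 28S, nuclear transfer RNAs and the ribosomal RNA that n-R5-8s1 is named after were not used here. Most of the suspected sources therefore could not be searched, and the match above is to that annotated gene alone.

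miR-3968 has features that are also found at the 3′ end of transfer RNAs. Transfer RNAs end in CCA, which an enzyme adds after transcription, and their T loop holds a well-conserved stretch near that end. The last letters of miR-3968 are CCA, as in 1 of the 218 ordinary named miRNAs averaging 10 RPM or more (0.459%). Among all 1291 ordinary named miRNAs with a RefSeq sequence, 16 ended so (1.24%). The mature sequence is bases 72 to 92 of the annotated hairpin, so this CCA is encoded in the reference genome. The first letters of miR-3968, CGAAUCC, occurred in 1 other of the 1304 listed sequences, that of miR-5100, named here after its sequence was seen. Those letters were taken from miR-3968 itself, so nothing is read from how few others hold them. The sequences of miR-5100 and of miR-3963, a name on the list of other suspected fragments, are shown with the run each shares with miR-3968 in capitals.
miR-5100: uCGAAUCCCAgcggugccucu
miR-3963: uguAUCCCACUucugacac
The run was 9 bases for miR-5100. For miR-3963 it was 8 bases, with 15 of 19 positions identical without gaps. A shared run is a description of letters and does not show where reads came from.

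The libraries differed in what else they held. Taking the lowest non-zero value of a library as 2 reads, every value of that library was a whole number of reads within a tolerance of 0.001 of a read. On that reading the libraries held 1608276 to 1838239 listed reads in the knockout group and 1352045 to 1627705 in the control group. Values are in RPM, reads per 1000000 listed reads of a library, so a larger share of one entry lowers all others. Ordinary named miRNAs took 35.4% ± 5.40 of reads in knockout and 49.0% ± 2.77 in control libraries, and unnamed entries took 56.6% ± 5.37 in knockout and 47.6% ± 3.85 in control libraries (mean ± SD, n = 3 each). Knockout replicate 3 stood apart, with 29.3% of ordinary named miRNAs and 62.8% of unnamed entries. The sum of 6 listed mesenchymal markers, which fit the lineage of osteoblasts, was 30970 to 62609 RPM in knockout and 82029 to 91392 RPM in control libraries. The markers of other cells on the lists used were scarce. miR-486b-5p, an erythroid miRNA outside these lists, averaged 426 RPM over the 6 libraries, so blood RNA is not measured by the list alone. The 4 listed blood markers summed to 38.6 to 70.9 RPM in knockout and 91.0 to 132 RPM in control libraries. The 2 endothelial markers summed to 15.2 to 26.7 RPM in knockout and 47.9 to 63.6 RPM in control libraries, and the 3 epithelial markers to 10.9 to 23.6 RPM in knockout and 13.7 to 17.0 RPM in control libraries. The 3 muscle markers summed to 40.3 to 57.6 RPM in knockout and 71.0 to 85.1 RPM in control libraries. The liver marker had 3.26 to 10.6 RPM in knockout and 17.8 to 18.7 RPM in control libraries. No listed marker was at 0 in all libraries. The part of these differences in the results below was not tested.

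Together the 5 entries took 7.62%, 6.42% and 7.15% of all listed reads in knockout replicates 1, 2 and 3, against 3.83%, 1.96% and 2.22% in control replicates 1, 2 and 3. All knockout libraries were above all control libraries. The means were 7.06% ± 0.600 in knockout and 2.67% ± 1.01 in control libraries (SD, n = 3 each), a difference of 4.39 percentage points. Of the reads under miRNA names alone, the 5 took 16.5% ± 2.79 in knockout and 5.02% ± 1.50 in control libraries. miR-6239 supplied 44.3% to 47.5% of the reads of the 5 in knockout and 46.4% to 50.0% in control libraries, and miR-6236 supplied 35.5% to 45.7% in knockout and 26.4% to 29.6% in control libraries.

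**Figure D2:**
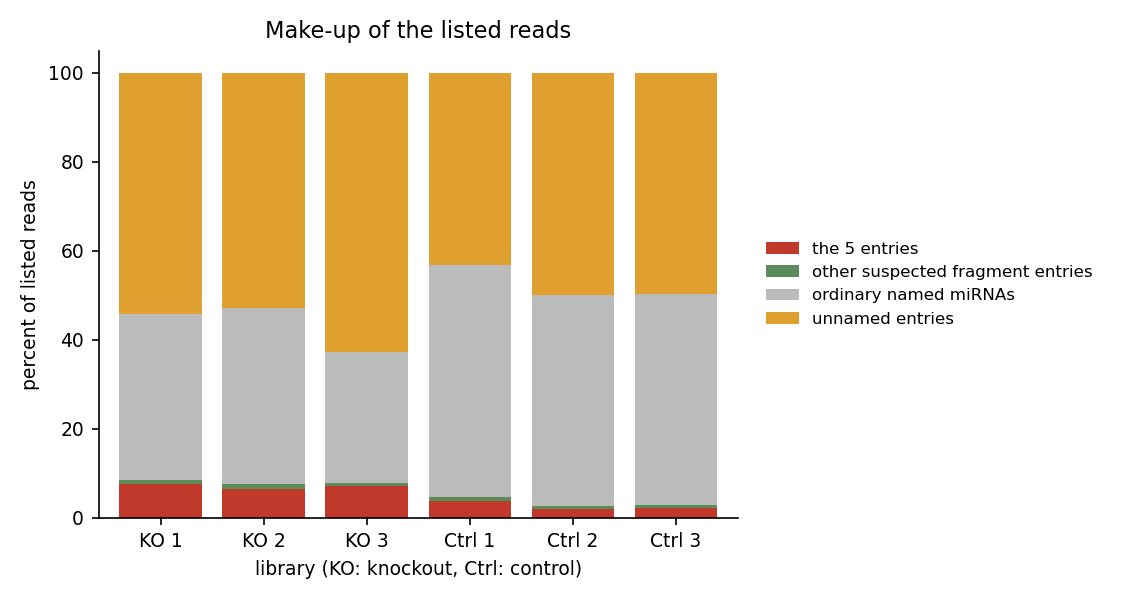
Percent of listed reads (y axis) in each of the 6 libraries (x axis), split into the 5 entries, other suspected fragment entries, ordinary named miRNAs and unnamed entries. The 5 entries take 6.42% to 7.62% in the knockout and 1.96% to 3.83% in the control libraries.

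mmu-miR-6239 was the most abundant of the 5. It had 33755, 30489 and 33217 RPM in knockout replicates 1, 2 and 3, against 17791, 9688 and 11105 RPM in control replicates 1, 2 and 3. The knockout libraries lay close together and above all control libraries, among which replicate 1 was highest. Among the named entries it ranked 1, 2 and 3 in the knockout libraries and 9, 13 and 13 in the control libraries, in replicate order. The means were 32487 ± 1751 RPM in knockout and 12861 ± 4328 RPM in control libraries (SD, n = 3 each), 2.53 times as high in the knockout. The log2 fold change of RPM + 1 was 1.39 ± 0.34 (SE). Here and below this SE was set by the spread of entries at the same level, and not by the entry's own replicates.

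mmu-miR-6236 had 29693, 22816 and 32649 RPM in the knockout libraries, against 11332, 5598 and 5859 RPM in the control libraries, in replicate order. Again the groups did not overlap and control replicate 1 was the highest of its group. The rank among named entries was 3, 8 and 4 in knockout and 14, 20 and 20 in control libraries. With means of 28386 ± 5045 RPM in knockout and 7596 ± 3238 RPM in control libraries (SD, n = 3 each), miR-6236 had the largest ratio of the 5, at 3.74, and a log2 fold change of 1.96 ± 0.33 (SE).

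mmu-miR-6238 was rarer. It had 1601, 1452 and 1936 RPM in the knockout libraries, against 813, 581 and 637 RPM in the control libraries, in replicate order. The groups did not overlap, and knockout replicate 3 was highest. The means were 1663 ± 248 RPM in knockout and 677 ± 121 RPM in control libraries (SD, n = 3 each), with a log2 fold change of 1.30 ± 0.29 (SE) and a rank of 35 to 42 in knockout and 61 to 63 in control libraries.

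mmu-miR-6240 overlapped between the genotypes. It had 11053, 9421 and 3612 RPM in the knockout libraries, against 8216, 3618 and 4468 RPM in the control libraries, in replicate order. Knockout replicate 3 lay at the level of control replicate 2, far below the other knockout libraries. The means were 8029 ± 3911 RPM in knockout and 5434 ± 2447 RPM in control libraries (SD, n = 3 each), with a log2 fold change of 0.50 ± 0.31 (SE). Without limma's trend, described below, the SE was 0.56. Without knockout replicate 3 the log2 fold change was 0.9999 and miR-6240 joined the entries called by limma, and without knockout replicate 1 it was 0.19.

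mmu-miR-3968 was the rarest of the 5 and the only one lower in the knockout. It had 59.7, 67.8 and 37.0 RPM in the knockout libraries, against 163, 157 and 135 RPM in the control libraries, in replicate order. Those values stand for 96, 120 and 68 reads in the knockout and 226, 212 and 220 reads in the control libraries. All knockout libraries were below all control libraries, with knockout replicate 3 lowest. The means were 54.8 ± 16.0 RPM in knockout and 152 ± 14.6 RPM in control libraries (SD, n = 3 each), a ratio of 0.362 and a log2 fold change of -1.49 ± 0.33 (SE).

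**Figure D3:**
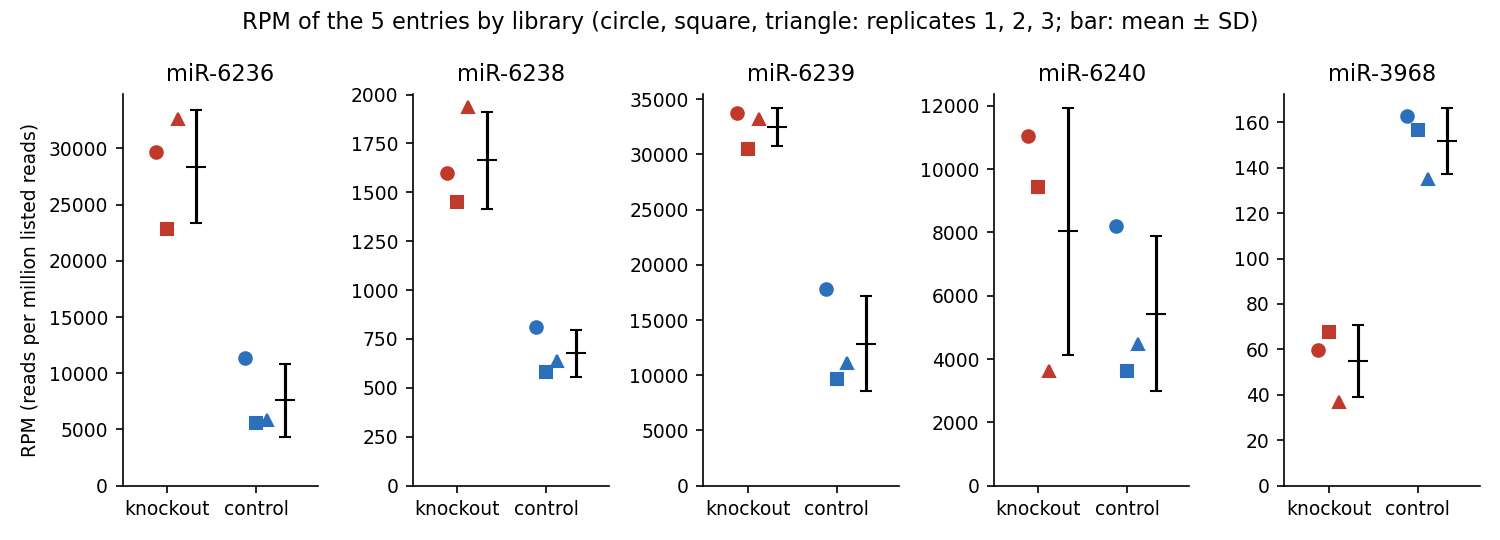
RPM (y axis, reads per 1000000 listed reads, from 0) of each of the 5 entries in the knockout (red) and control (blue) libraries, with circle, square and triangle for replicates 1, 2 and 3 and black bars for the mean ± SD of 3 libraries. The groups are apart for miR-6236, miR-6238 and miR-6239 (higher in the knockout) and miR-3968 (lower), and overlap for miR-6240, whose knockout replicate 3 is at 3612 RPM.

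A fit over the 1114 entries that reached 1 RPM in 3 or more libraries gives the background for these differences. limma, with a Benjamini-Hochberg adjusted p under 0.05, called 54 entries (4.85%), 24 higher in the knockout (2.15%) and 30 lower (2.69%). Scaled to ordinary named miRNAs, it called 38 higher and 2 lower. Of the 5, 3 were among those higher (miR-6236, miR-6238 and miR-6239) and 1 among those lower (miR-3968). The groups were apart for 285 of the 1114 entries (25.6%), for 70 with the knockout higher (6.28%) and for 215 with it lower (19.3%), and for 3 and 1 of the 5. Among the 261 ordinary named miRNAs averaging 10 RPM or more, they were apart for 21 with the knockout higher and 140 with it lower. Groups apart and lower, as for miR-3968, were therefore common at that level. Since the 5 were chosen with this comparison known, nothing is read from their counts. The calls leaned on limma's trend, which lends every entry the spread of entries at its level: without the trend limma called 0 entries, while 55 were higher and 75 were lower by unadjusted p under 0.05. When control replicate 3 was left out, limma called none of the 5, but the whole fit of 1114 entries then had 0 calls. Leaving out control replicate 2 kept miR-6236 alone of the 5. In that fit 6 entries of the 1114 passed, each with its higher level in the knockout. The loss of calls was therefore not particular to the 5. The log2 fold changes stayed at 1.82 and 1.78 for miR-6236 under these settings.

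The log2 fold changes of the 5 were set beside those of ordinary named miRNAs. The 261 ordinary named miRNAs averaging 10 RPM or more had a median log2 fold change of -0.60, with 212 below 0; over all tested entries the median was -0.27. Of the 261, 4 had a larger log2 fold change than miR-6236, 8 than miR-6239, 9 than miR-6238 and 27 than miR-6240, while 2 had a lower one than miR-3968. None of the 45 averaging 1000 RPM or more lay above miR-6236. The 3 most abundant ordinary miRNAs all had lower values in the knockout libraries. miR-99a-5p had 28655 ± 8005 RPM in knockout and 47235 ± 4464 RPM in control libraries, with a log2 fold change of -0.76. miR-143-3p, a miRNA of mesenchymal cells, had 22459 ± 9744 RPM in knockout and 39837 ± 336 RPM in control libraries (-0.94). miR-26a-5p had 23183 ± 6429 RPM in knockout and 38720 ± 3676 RPM in control libraries (-0.78; SD, n = 3 each). None of these 3 passed the limma threshold (adjusted p of 0.212, 0.0858 and 0.185). In every knockout library but replicate 2, miR-6239 had more reads than any of them, and in every control library it had fewer.

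**Figure D4:**
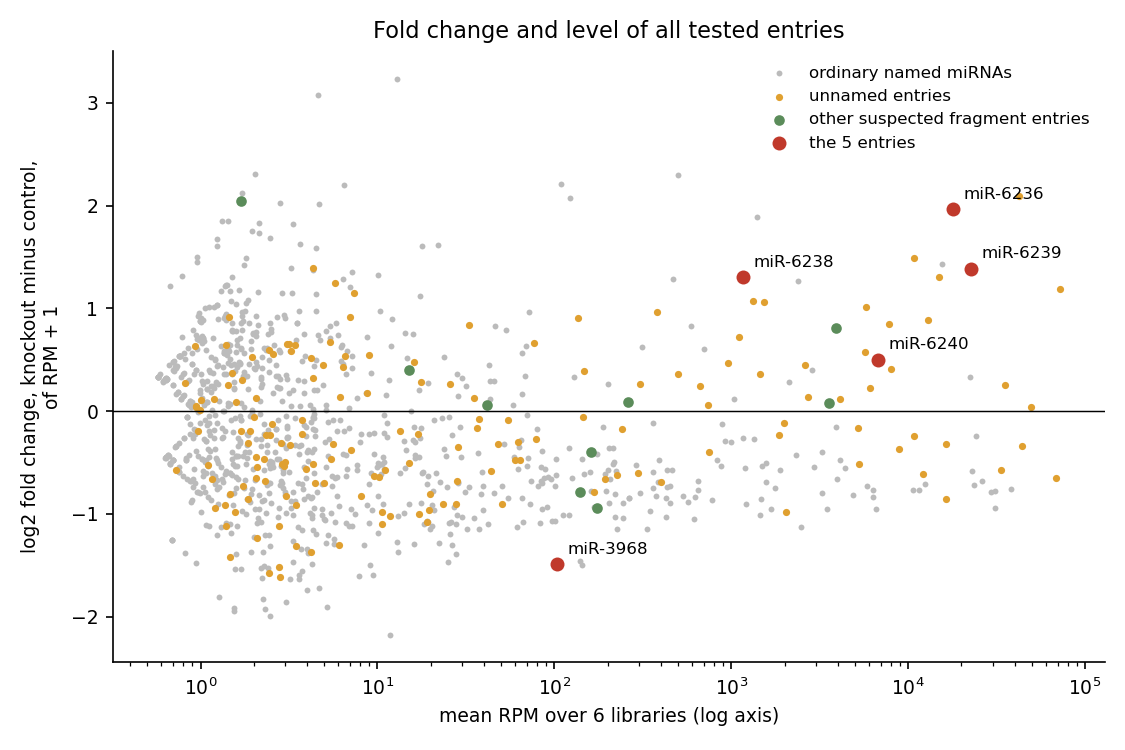
Log2 fold change of RPM + 1, knockout minus control (y axis), against the mean RPM over the 6 libraries (x axis, log scale) for the 1114 entries tested. The 5 entries are red: miR-6236, miR-6239 and miR-6238 lie above almost all ordinary named miRNAs (grey) of their level, miR-6240 lies at 0.50 and miR-3968 at -1.49.

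Counted per 1000000 reads of ordinary named miRNAs, which removes the share of the unnamed entries, the gaps of the higher entries widened and that of miR-3968 narrowed. On that scale miR-6236 had 82903 ± 27040 in knockout and 15283 ± 5561 in control libraries, a ratio of 5.42. miR-6239 had 93635 ± 18383 in knockout and 25965 ± 7168 in control libraries, a ratio of 3.61, and the ratio was 3.53 for miR-6238 (SD, n = 3 each). miR-6240 had 29776, 23717 and 12310 in the knockout libraries, against 15731, 7630 and 9416 in the control libraries, in replicate order, so that the groups still overlapped, through knockout replicate 3 and control replicate 1. miR-3968 had 153 ± 23.4 in knockout and 309 ± 23.0 in control libraries, a ratio of 0.493, with the groups still apart. With this scaling the median log2 fold change of all tested entries was 0.08, against -0.27 for the deposited scaling, and no scaling tried changed the direction of any of the 5.

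The 5 did not vary as one set. Because the libraries fall into the 2 genotypes, no pooled correlation is given. The measure used is the standard deviation, over the 6 libraries, of the log2 ratio of a pair of entries, which is small where their ratio is nearly constant and hardly depends on how a library is scaled. Ordinary named miRNAs averaging 10 RPM or more had a median of 0.51 over all their pairs (5th to 95th percentile 0.17 to 1.49), and those averaging 1000 RPM or more had a median of 0.29. The steadiest pair of the 10 was miR-6238 with miR-6239, at 0.18. The ratio of miR-6238 to miR-6239 was 0.0474, 0.0476 and 0.0583 in the knockout libraries, against 0.0457, 0.0599 and 0.0574 in the control libraries, in replicate order. The groups overlapped in this ratio.

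miR-6236 followed the pair less closely. Its ratio to miR-6239 was 0.880, 0.748 and 0.983 in the knockout libraries, against 0.637, 0.578 and 0.528 in the control libraries, in replicate order. The groups were apart, and the spread over all 6 was 0.35 on the log2 scale, against 0.17 within the groups. In the control libraries, miR-6236, miR-6238, miR-6239 and miR-6240 all had their highest value in replicate 1, then replicate 3, then replicate 2. In the knockout libraries miR-6239 kept that order, but miR-6236, miR-6238 and miR-6240 did not. Knockout replicate 3 was highest for miR-6236 and miR-6238, and lowest for miR-6240 and miR-3968.

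The ratios of miR-6240 to miR-6236, miR-6238 and miR-6239 were furthest from the rest in knockout replicate 3. miR-6239 had 3.05 and 3.24 times the level of miR-6240 in knockout replicates 1 and 2 and 9.20 times in knockout replicate 3, against 2.17, 2.68 and 2.49 times in control replicates 1, 2 and 3. The groups were apart in this ratio also without that library. miR-6236 had 2.69, 2.42 and 9.04 times the level of miR-6240 in the knockout libraries, against 1.38, 1.55 and 1.31 times in the control libraries, in replicate order, with the groups again apart. In the ratio of miR-6238 to miR-6240 the groups overlapped. The spread of the log2 ratio of miR-6239 to miR-6240 was 0.75 over the 6 libraries and 0.23 without knockout replicate 3. For miR-6240 with miR-6238 these values were 0.84 and 0.28, and for miR-6240 with miR-6236 they were 1.05 and 0.48.

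miR-3968 ran opposite to the rest. Its log2 ratio to the other 4 had a spread of 1.19 (miR-6240) to 1.97 (miR-6236) over the 6 libraries. Within the groups the spread was 0.46 to 0.60, beside a median of 0.42 within the groups for pairs of ordinary named miRNAs averaging 10 RPM or more.

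**Figure D5:**
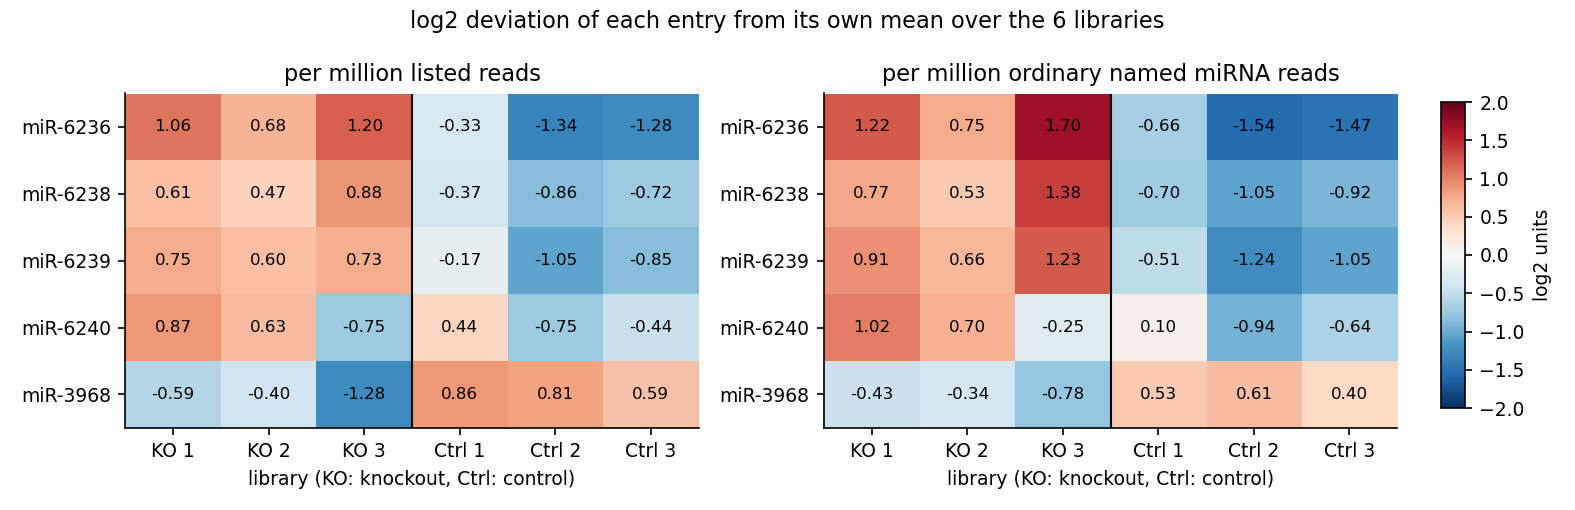
Log2 deviation of each of the 5 entries (rows) from its own mean over the 6 libraries (columns, knockout left of control), per 1000000 listed reads (left) and per 1000000 reads of ordinary named miRNAs (right). miR-6236, miR-6238 and miR-6239 are positive in all knockout and negative in all control libraries on both scales, miR-3968 is the reverse, and miR-6240 is at -0.75 (left) and -0.25 (right) in knockout replicate 3.

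The entries most like each of the 5 were those with the smallest such spread of the 176 averaging 100 RPM or more. For miR-6236 these were miR-8099 (0.14), miR-494-3p (0.19) and the unnamed entry 4_57299 (0.22). miR-8099 had 223, 173 and 195 RPM in the knockout libraries, against 71.4, 35.5 and 38.1 RPM in the control libraries, in replicate order, and so had the same control order as miR-6236 apart from its level. For miR-6238 the nearest were miR-6937-5p (0.12), miR-6239 itself and the unnamed entry 10_7757 (0.22). miR-6937-5p had 3174, 3352 and 3591 RPM in the knockout libraries, against 1684, 1286 and 1262 RPM in the control libraries, in replicate order. It was also the second nearest to miR-6239 (0.18), after miR-6238.

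The mature sequences of these neighbours are shown for comparison, with the seed in capitals.
miR-8099: cCAAGGCGugggaaagguugu
miR-494-3p: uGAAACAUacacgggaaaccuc
miR-6937-5p: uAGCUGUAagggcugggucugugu
None shared a run of more than 5 bases with any of the 5.

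For miR-6240 the nearest entries were less close. A pair of unnamed entries came first (0.28 and 0.37), then miR-1195 (0.45), which had 382 ± 88.1 RPM in knockout and 245 ± 31.8 RPM in control libraries (SD, n = 3 each). For miR-3968 the nearest were miR-467a-5p (0.26), from the repeat-rich Sfmbt2 cluster, miR-335-3p (0.27) and miR-149-5p (0.29), all ordinary named miRNAs with lower levels in the knockout. Of the 20 entries nearest to each, 11 were unnamed for miR-6236, 12 for miR-6238, 11 for miR-6239 and 14 for miR-6240, but 0 for miR-3968. Unnamed entries made up 48 of the 176 candidates. The spread takes in the difference between the genotypes, so entries that differ in the same direction come out nearer. Of those averaging 1000 RPM or more, 19 of 32 unnamed entries and 7 of 45 ordinary named miRNAs had a log2 fold change above 0. The counts of neighbours thus also reflect direction. What RNA the unnamed entries stand for was not established here.

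Other names suspected of collecting fragments had values on both sides of 0. Of a list of 22 such names, 10 were listed and 9 tested, and their median log2 fold change was 0.08, beside -0.27 for all tested entries. limma called 0 of the 9 higher and 1 lower (2 and 2 at an unadjusted p under 0.05, beside 60 and 163 of the 1114). The most abundant, miR-5099, had 5423, 5236 and 4330 RPM in the knockout libraries, against 3072, 2629 and 2840 RPM in the control libraries, in replicate order. Its groups did not overlap, but its log2 fold change of 0.81 ± 0.30 (SE) did not pass (limma adjusted p = 0.0850). miR-2137, with 3672 ± 972 RPM in knockout and 3444 ± 689 RPM in control libraries, had a log2 fold change of 0.08, and miR-709, with 268 ± 14.0 RPM in knockout and 255 ± 45.4 RPM in control libraries, had 0.09 (SD, n = 3 each). Both listed names numbered close to the members were rare. miR-6244 had 1.87, 2.82 and 5.44 RPM in the knockout libraries, in replicate order, while each control library listed it at 0. miR-6237 had 1.09 RPM in knockout replicate 3 and 1.23 RPM in control replicate 3, and was listed at 0 in the other 4 libraries.

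The entry called lower was miR-3963, whose sequence resembles that of miR-3968. It had 169, 126 and 75.1 RPM in the knockout libraries, against 229, 208 and 243 RPM in the control libraries, in replicate order. Its groups did not overlap, and knockout replicate 3 was lowest, as for miR-3968. The same was true of miR-99a-5p, miR-143-3p and miR-26a-5p, so this pattern is not particular to the 2 resembling sequences. The log2 fold change of miR-3963 was -0.94 ± 0.31 (SE, limma adjusted p = 0.0472). That call was lost in 15 of 17 alternative settings, with adjusted p from 0.0235 to 0.436 and no change of sign. miR-5100, which shares the first letters of miR-3968, was rare, with 2.77 ± 1.99 RPM in knockout and 5.34 ± 2.32 RPM in control libraries (SD, n = 3 each), and did not pass (limma adjusted p = 0.587).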

How the data were processed

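The 1 deposited table holds RPM values that sum to 1000000 in each library. The tools fastp and edgeR are named, without role or version, per the submitters' processing notes; the aligner, genome build and miRNA release were not given in the sources used here. Groups and replicate numbers came from the sample titles. The members and lists were chosen with earlier results of these data known.

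Entries with at least 1 RPM in at least 3 libraries were fitted with limma 3.58.1 (R 4.3.3, mean-variance trend, 2-sided, Benjamini-Hochberg adjusted p under 0.05) on log2(RPM + 1), which understates changes of low entries. The prior took the whole weight, so an entry's own spread did not enter its SE except through its small part in the trend. Tested on simulated data for this comparison (1114 entries, 200 changed), the fit found 40.7% of 2-fold and 96.7% of 4-fold changes, with 5.67% false calls. The simulated entries were independent, shared the same dispersion and had no shift in library make-up, and low entries were not changed. The rate of false calls therefore does not carry over to the real libraries.

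Entries named besides the members were the 3 most abundant ordinary miRNAs, the 3 nearest to each member, and, of the suspected list, the 4 most abundant and any called, with exceptions marked. Sequences are from RefSeq (GRCm38.p6), hairpins and loci from GENCODE M21 (GRCm38), and folds from ViennaRNA 2.7.2. No molecular identifiers are stated, so reads are not counted as independent molecules. Same-numbered libraries did not deviate together (r of -0.02 to 0.01 across entries, beside -0.08 to 0.07 for differently numbered ones). With 3 libraries a group this cannot exclude a pairing, which the labels do not state, so none was used in the main fit. A spread of a log2 ratio was counted as moved past 1.5 times, a limit set after its values were seen. Alternatives were other pseudocounts, filters, scalings, priors, a replicate block and each library left out.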

Additional observations from a re-analysis of the deposited data

How the results depend on the processing

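No alternative reversed any of the 5 log2 fold changes. Over 17 alternatives they ranged from 1.78 to 2.45 for miR-6236, 1.19 to 1.78 for miR-6238, 1.21 to 1.87 for miR-6239, 0.19 to 0.9999 for miR-6240 and -1.66 to -1.02 for miR-3968. With 1 library left out the ranges were 1.78 to 2.29, 1.19 to 1.44, 1.21 to 1.65, 0.19 to 0.9999 and -1.66 to -1.24. Without the trend all 4 calls were lost at unchanged values (1.96, 1.30, 1.39 and -1.49). The numbers of entries called higher and lower moved from 24 and 30 to 0 and 0 without the trend, and to 38 and 2 when scaled to ordinary named miRNAs. The number called lower was 15 with a pseudocount of 0.5 RPM or with no filter, 71 with a mean of at least 10 RPM, 5 when scaled to all named entries, 8 with median centring, 16 with quantile normalization and 17 with a robust prior. The numbers called higher beside them were 28 with scaling to all named entries and 32 with either median centring or quantile normalization. With the replicate block 19 were higher and 11 lower, and the calls of the 5 did not change. With 1 library left out, 0 to 26 were higher and 0 to 18 lower. The difference in the share of the 5 was 4.04 to 4.97 percentage points with 1 library left out, 11.5 points of named reads and 11.7 points of ordinary named reads plus the 5. The median spread of the log2 ratio over the 10 pairs was 0.94, and 0.46 to 1.05 with 1 library left out, the lowest without knockout replicate 3. The causes were not tested. Count models (edgeR, DESeq2) were not run, because the values are RPM and the numbers of reads rest on taking the lowest value as 2 reads. Whether those numbers are complete counts was not established. Depth limits miR-6237, miR-6244 and miR-5100, each under 10 RPM in every library.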
